A study of Mus musculus with 18 samples.

Results

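The colon transcriptome of mice gavaged with the ZJ316_KO strain after dextran sulfate sodium (DSS) was compared with that of mice given DSS without bacteria. The comparison took 7 of the 18 libraries of the series, 4 of the ZJ316_KO group and 3 of the DSS group. Genes with at least 1 FPKM (fragments counted per kilobase of a gene's transcript and scaled for the size of the library) in at least 3 of these 7 libraries were included, which gave 12920 of the 18349 genes listed. This filter did not use the difference between the groups, whereas the genes named below were partly chosen by it.

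RNA came from whole, rinsed colon of male C57BL/6 mice of wild-type host genotype, per the labels. ZJ316_KO mice (n = 4) drank 2.5% DSS for 7 days and were then gavaged with ZJ316-KO, a strain of the lactic acid bacterium Lactobacillus plantarum, for 5 weeks. DSS mice (n = 3) drank the same solution for the same time. Their libraries are labelled DSS only. That they are the PBS group of the protocol, gavaged with 200 µL per 10 g body weight for 5 weeks, is taken from that protocol, which speaks of 5 groups of DSS mice and names 4. Values of mice gavaged with the wild-type strain (ZJ316_WT, n = 4) or with ZJ316-COM (ZJ316_COM, n = 4), both after the same DSS course, and of Control mice on water without DSS (n = 3) are given where they place a gene. The labels do not say which bacterial gene KO refers to or what COM stands for. That gene belongs to the bacterium, so a table of mouse genes cannot show whether the strain carried the change. The labels give neither the ages of the mice nor the time of day at which colons were taken, and nothing ties a library to 1 animal. The p-values therefore cover the spread among libraries, which may be technical. That spread was estimated over all 18 libraries, so it includes the ZJ316_WT, ZJ316_COM and Control groups.

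DSS is a polymer that injures the colonic epithelium and is used to model colitis. During and after repair, the tissue is a mixture of absorptive and secretory epithelial cells, immune cells, stroma and muscle, and transcripts of all of these are read together. Epithelial cells of the colon make cholesterol through the mevalonate pathway under control of the sterol-sensing factor SREBP2. They also run a circadian clock in which the activators BMAL1 and CLOCK drive their own repressors and a group of output factors.

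Library totals were 526797 to 531907 FPKM in ZJ316_KO and 518590 to 537426 FPKM in DSS. The number of reads is unknown. Markers of absorptive colonocytes had a mean log2(FPKM + 1) of 8.46 to 8.94 in ZJ316_KO and 8.03 to 8.42 in DSS, so colonic epithelium was well represented in all 7 libraries. Single libraries stood apart in genes of other tissues. The mean over 16 genes for digestive enzymes of the pancreatic acinar cell was 9.09 in ZJ316_KO 3, 10.7 in DSS 1 and 8.16 in DSS 3, whereas it was 0.917 in ZJ316_KO 2 and 0.998 in DSS 2. The acinar trypsinogen gene Try4, which has near-identical copies, was listed at 0 in ZJ316_KO 1, ZJ316_KO 2 and DSS 2. Squamous epithelium genes had a mean of 1.77 in ZJ316_KO 3 and of 2.88 in DSS 2. The distal Hox genes, which mark position along the gut, had their lowest means in ZJ316_KO 2 (2.13) and DSS 3 (2.45), against 3.06 to 3.32 in the other ZJ316_KO libraries and 3.33 and 3.78 in the other DSS libraries. These low means came from part of the list, such as Hoxd13, with 1.71 FPKM in ZJ316_KO 2 and 6.67 FPKM in DSS 3. Hoxa10 (31.79 FPKM) and Hoxa13 (11.22 FPKM) were highest in ZJ316_KO 2 of its group, and Hoxa10 (23.6 FPKM) in DSS 3 of its group. The part of these tissues in the results below was not tested beyond fits without those libraries. Leaving out the acinar-rich libraries ZJ316_KO 3, DSS 1 and DSS 3 kept only DSS 2, the squamous-rich library, in the DSS group. Values of that fit therefore rest on a single DSS library.

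Few genes separated the groups. At a Benjamini-Hochberg adjusted p under 0.05 in limma, 21 of 12920 genes (0.163%) differed, 13 higher (0.101%) and 8 lower (0.0619%) in ZJ316_KO than in DSS. At an unadjusted p under 0.05 there were 2129 genes (16.5%). The 4 ZJ316_KO values did not overlap the 3 DSS values in 2521 genes (19.5%), with 1009 higher (7.81%) and 1512 lower (11.7%) in ZJ316_KO. The median log2 fold change of all genes tested was -0.03. All fold changes are given as the difference ZJ316_KO minus DSS of log2(FPKM + 1) ± SE, and this scale understates the change of genes with low FPKM. Calls depended on single libraries: 0 genes passed without DSS 1 and 0 without DSS 3 in limma, with 1701 and 1664 genes at an unadjusted p under 0.05. The count was 5 without DSS 2, 5 without ZJ316_KO 4 and 8 without ZJ316_KO 2. All 21 genes kept their direction in every alternative fit.

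**Figure D1:**
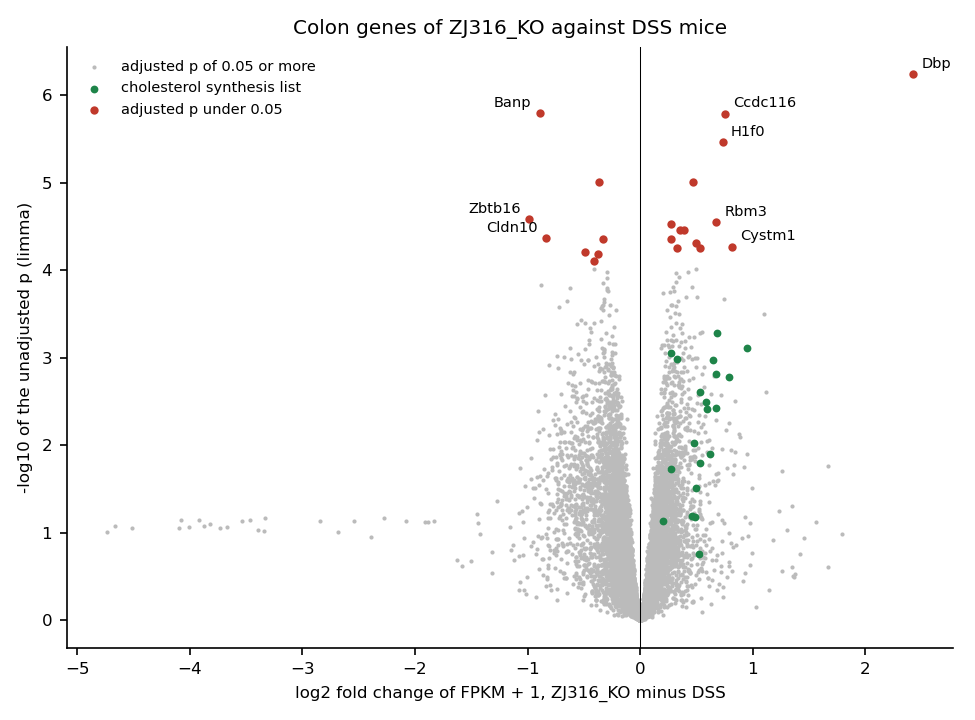
Each point is 1 of the 12920 genes tested. The horizontal axis is the log2 fold change of FPKM + 1, ZJ316_KO minus DSS, and the vertical axis is -log10 of the unadjusted p from limma. Red points mark the 21 genes at an adjusted p under 0.05, and green points the 20 genes of the cholesterol synthesis list, which lie to the right of 0 without reaching that threshold.

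The gene that differed most among the 21 was Dbp, a transcription factor that carries the output of the circadian clock (gene ID 13170, chromosome 7, 45705100 to 45710203, GRCm38.p6). It had 13.71, 11.36, 12.25 and 20.27 FPKM in the ZJ316_KO libraries, against 1.63, 3.04 and 1.08 FPKM in the DSS libraries. The lowest ZJ316_KO library thus lay far above the highest DSS library. Dbp averaged 14.4 ± 4.03 FPKM in ZJ316_KO (SD, n = 4) and 1.92 ± 1.01 FPKM in DSS (SD, n = 3), a log2 fold change of 2.42 ± 0.30 (limma, adjusted p = 0.00698). Its fold change stayed between 1.96 and 2.93 in all alternative fits, and the call held in 5 of the 7 fits that left out 1 library of these groups. It was lost in limma without DSS 1 (2.38, adjusted p = 0.0643) and without DSS 3 (2.21, adjusted p = 0.0520). The call was also lost without the low-Hox libraries (2.30, adjusted p = 0.0653) and with acinar, squamous and Hox means as covariates (2.34, adjusted p = 0.0524). Without the acinar-rich libraries ZJ316_KO 3, DSS 1 and DSS 3, only DSS 2 was left in the DSS group, and the fold change was 1.96. No other gene was called at a fold change beyond 1 in either direction.

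Ccdc116, a coiled-coil protein gene (gene ID 76872, chromosome 16, 17139064 to 17147802), had 8.81, 9.78, 7.47 and 9.57 FPKM in ZJ316_KO, against 4.61, 4.76 and 5.2 FPKM in DSS. Both groups were narrow and well apart, and the gene rose by 0.75 ± 0.10 (adjusted p = 0.00698). H1f0, which encodes the linker histone H1.0 of slowly dividing and differentiated cells (gene ID 14958, chromosome 15, 79028212 to 79030504), had 188.34, 140.95, 147.25 and 165.31 FPKM in ZJ316_KO, against 99.38, 85.96 and 101.75 FPKM in DSS. No ZJ316_KO library came near the highest DSS library, and the rise was 0.73 ± 0.11 (adjusted p = 0.0111). Rbm3, a cold-inducible RNA-binding protein gene on chromosome X (8138975 to 8145880), had 117.29, 123.43, 116.79 and 120.1 FPKM in ZJ316_KO, against 68.81, 88.67 and 67.65 FPKM in DSS. The ZJ316_KO libraries lay close together, DSS 2 was the highest of its group, and the rise was 0.67 ± 0.12 (adjusted p = 0.0398).

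The other 9 genes that rose changed less than H1f0, except Cystm1. Cystm1, which encodes a small cysteine-rich membrane protein, had 50, 43.06, 46.96 and 47.49 FPKM in ZJ316_KO, against 26.63, 27.88 and 24.28 FPKM in DSS. It rose by 0.81 ± 0.15 (adjusted p = 0.0398), with a wide gap between the groups. Ube2m, the enzyme that conjugates the ubiquitin-like protein NEDD8, had 80.21, 101.64, 91.49 and 82.63 FPKM in ZJ316_KO, against 61.97, 63.83 and 64.87 FPKM in DSS, and rose by 0.47 ± 0.07 (adjusted p = 0.0210). The DSS libraries were nearly equal here and all below ZJ316_KO. Cdkn3, a phosphatase of cyclin-dependent kinases, rose by 0.53 ± 0.10, and Dynlt1b, a dynein light chain gene with near-identical copies whose single value is uncertain, by 0.50 ± 0.09. Smaller rises were those of the ribokinase gene Rbks (0.39 ± 0.07), of Sra1, named for its role as a steroid receptor RNA activator (0.33 ± 0.06), of the mitochondrial ribosomal protein gene Mrpl2 (0.28 ± 0.05) and of the atypical MAP kinase gene Mapk6 (0.27 ± 0.05). The clone-named gene 2610528J11Rik rose by 0.35 ± 0.06.

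**Figure D2:**
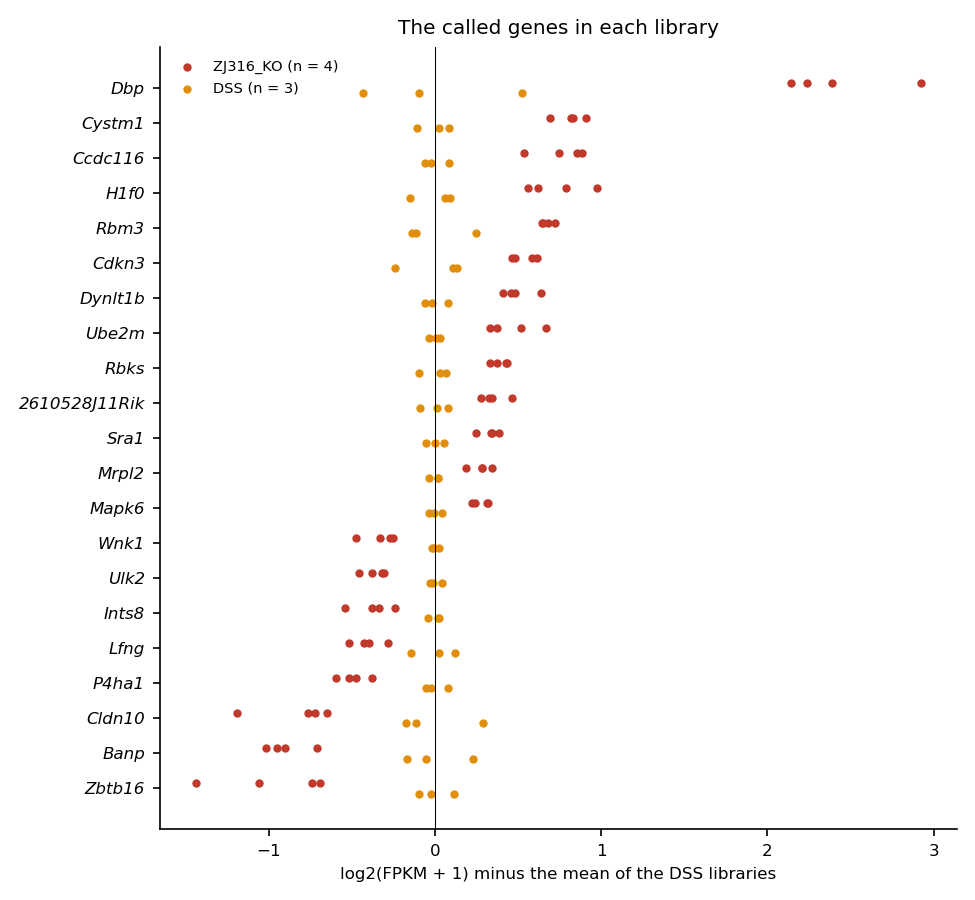
The 21 genes called at an adjusted p under 0.05, 1 per row, with log2(FPKM + 1) of each library minus the mean of the DSS libraries on the horizontal axis. Red points are the 4 ZJ316_KO libraries and orange points the 3 DSS libraries. The groups do not overlap in any row, and Dbp has the widest gap.

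Of the 8 genes that fell, Banp, a nuclear protein gene that regulates transcription (gene ID 53325, chromosome 8, 121947972 to 122029260), had the smallest p. It had 5.53, 4.52, 4.28 and 4.72 FPKM in ZJ316_KO, against 9.27, 8.48 and 11.48 FPKM in DSS. Every ZJ316_KO library was below every DSS library, and Banp fell by 0.89 ± 0.12 (adjusted p = 0.00698). Its fold change ranged from -1.01 to -0.68 over the alternative fits. Banp averaged 4.76 ± 0.54 FPKM in ZJ316_KO, 8.13 ± 0.57 FPKM in ZJ316_WT and 9.61 ± 1.77 FPKM in ZJ316_COM (SD, n = 4 each). It averaged 9.74 ± 1.55 FPKM in DSS and 12.9 ± 0.70 FPKM in Control (SD, n = 3 each).

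Zbtb16, a zinc-finger repressor, had 1.48, 0.48, 1.4 and 0.93 FPKM in ZJ316_KO, against 3.35, 2.95 and 2.76 FPKM in DSS, and fell by 0.98 ± 0.17 (adjusted p = 0.0398). The tight junction gene Cldn10 had 0.73, 0.68, 0.82 and 0.25 FPKM in ZJ316_KO, against 1.64, 2.49 and 1.53 FPKM in DSS, and fell by 0.83 ± 0.15 (adjusted p = 0.0398). Both lay near the lower limit of the filter. Both also entered the test only through the DSS libraries, where they were high, as too few ZJ316_KO libraries reached 1 FPKM. They and 2610528J11Rik were named outside the rule, after their values were seen. P4ha1, a subunit of the prolyl hydroxylase that matures collagen, had 13.61, 11.54, 12.64 and 12.27 FPKM in ZJ316_KO, against 17.27, 19.04 and 17.67 FPKM in DSS. Its groups were tight and separate, and it fell by 0.49 ± 0.09 (adjusted p = 0.0418).

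The remaining 4 genes that fell did so by less. Wnk1, a kinase that controls sodium, potassium and chloride cotransport, had 21.67, 18.71, 21.91 and 20.7 FPKM in ZJ316_KO, against 26.02, 26.8 and 26.21 FPKM in DSS, and fell by 0.33 ± 0.06 (adjusted p = 0.0398). The autophagy kinase gene Ulk2 fell by 0.37 ± 0.06, with 5.05 to 5.72 FPKM in ZJ316_KO and 7.15 to 7.56 FPKM in DSS. Lfng, a glycosyltransferase that modifies Notch receptors, fell by 0.41 ± 0.08, and Ints8, a subunit of the Integrator complex of RNA processing, by 0.37 ± 0.07. Among genes that did not pass, those with the smallest p on the lower side were Phtf1 (-0.41 ± 0.08, adjusted p = 0.0529), the RNA-binding protein gene Fxr1 (-0.29 ± 0.06), the ubiquitin ligase gene Mycbp2 (-0.30 ± 0.06), the glucosyltransferase gene Poglut3 (-0.33 ± 0.07), the lymphocyte GTPase gene Gimap1 (-0.62 ± 0.13) and the histone methyltransferase subunit gene Rbbp5 (-0.30 ± 0.06), all between adjusted p = 0.0529 and 0.0587. With a filter of 5 FPKM in 3 of the 7 libraries, which left 9474 genes, Phtf1, Fxr1, Mycbp2, Poglut3, Gimap1 and Rbbp5 all passed, at adjusted p between 0.0443 and 0.0467.

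Long and short genes leaned in different directions. The median log2 fold change was 0.05 in the shortest of 10 equal bins of transcript length (312 to 1394 nt) and -0.08 in the longest (6665 nt and more). Of the 13 genes that rose, 4, 3 and 3 were in the 3 shortest bins, and 2 of the 8 that fell were there. Spearman's rho between fold change and transcript length was -0.188 across 12789 genes, which share the same libraries. After removal of a trend on length and GC content, chosen after seeing the data, 26 genes were called, 15 of them among the 21. The part of transcript length in single calls was not tested further.

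Circadian clock genes differed in direction, and of these Dbp rose. Of 18 clock genes tested, 1 was called (0.163% of all genes), 11 had a positive fold change and the list's median was 0.19, or 0.02 without the acinar-rich libraries (ZJ316_KO 3, DSS 1 and DSS 3). In 9 the groups did not overlap, 5 with ZJ316_KO higher (Dbp, Tef, Hlf, Nr1d2 and Cry2, against 7.81% of all genes) and 4 with ZJ316_KO lower (Arntl, Nfil3, Npas2 and Clock, against 11.7%). Hlf passed the filter only through the ZJ316_KO libraries, so its place in this count was partly set by the filter. An unadjusted p under 0.05 was found for 11 of the 18 (16.5% of all genes). When the ZJ316_KO and DSS libraries were fitted alone, Arntl (adjusted p = 0.0454) and Nfil3 (adjusted p = 0.0471) passed as well. Transcripts of the clock vary over the day, and the labels give no time of harvest.

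Tef and Hlf are close relatives of Dbp that bind the same D-box sites, and Nfil3 is the repressor that competes for them. Tef had 13.38, 10.03, 14.87 and 15.73 FPKM in ZJ316_KO, against 5.88, 7.46 and 4.09 FPKM in DSS. Its fold change was 1.10 ± 0.24 with the groups apart, at an adjusted p of 0.0671. Hlf had 1.12 to 1.6 FPKM in ZJ316_KO and 0.53 to 0.98 FPKM in DSS (0.49 ± 0.12, adjusted p = 0.0980), and passed after quantile normalization (0.86, adjusted p = 0.0459). It entered the test only through the ZJ316_KO libraries, where it was high. Nfil3 had 3.42, 3.47, 3.72 and 3.07 FPKM in ZJ316_KO, against 7.13, 6.23 and 8.68 FPKM in DSS (-0.91 ± 0.27, adjusted p = 0.133). The ZJ316_KO libraries were nearly equal for Nfil3 and all lay under the DSS libraries.

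Arntl, which encodes BMAL1, had 19.09, 20.05, 20.96 and 19.01 FPKM in ZJ316_KO, against 30.76, 29.68 and 29.86 FPKM in DSS. Both groups were tight and did not overlap, with a fold change of -0.58 ± 0.15 (adjusted p = 0.103). Its partner genes Npas2 and Clock had fold changes of -0.47 ± 0.15 and -0.30 ± 0.12 (adjusted p = 0.152 and 0.234). Nr1d1 and Nr1d2 encode the REV-ERB receptors that repress Arntl. Nr1d1 had 56.21, 34.69, 55.81 and 74.16 FPKM in ZJ316_KO, against 30.24, 36.17 and 18.28 FPKM in DSS, so that ZJ316_KO 2 lay within the DSS range (0.95 ± 0.34, adjusted p = 0.191). Nr1d2 had 13 to 18.88 FPKM in ZJ316_KO and 6.66 to 12.08 FPKM in DSS (0.84 ± 0.24, adjusted p = 0.126).

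The repressor genes of the loop did not move as 1 group. Cry2 had 5.34 to 6.59 FPKM in ZJ316_KO and 3.37 to 5.15 FPKM in DSS (0.43 ± 0.14, adjusted p = 0.147). Cry1 had 4.46, 10.85, 7.44 and 7.08 FPKM in ZJ316_KO, against 11.24, 9.9 and 10.81 FPKM in DSS, and its fold change was -0.51 ± 0.19 (adjusted p = 0.204) with ZJ316_KO 2 inside the DSS range. The period genes Per1, Per2 and Per3 overlapped between groups, with fold changes of 0.18 ± 0.15, 0.19 ± 0.21 and 0.32 ± 0.21. Ciart, a further repressor of BMAL1 and CLOCK, and Bhlhe40 had 0.45 ± 0.23 and 0.20 ± 0.13. The nuclear receptor gene Rora, whose product drives Arntl, had -0.03 ± 0.08. None of these passed.

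**Figure D3:**
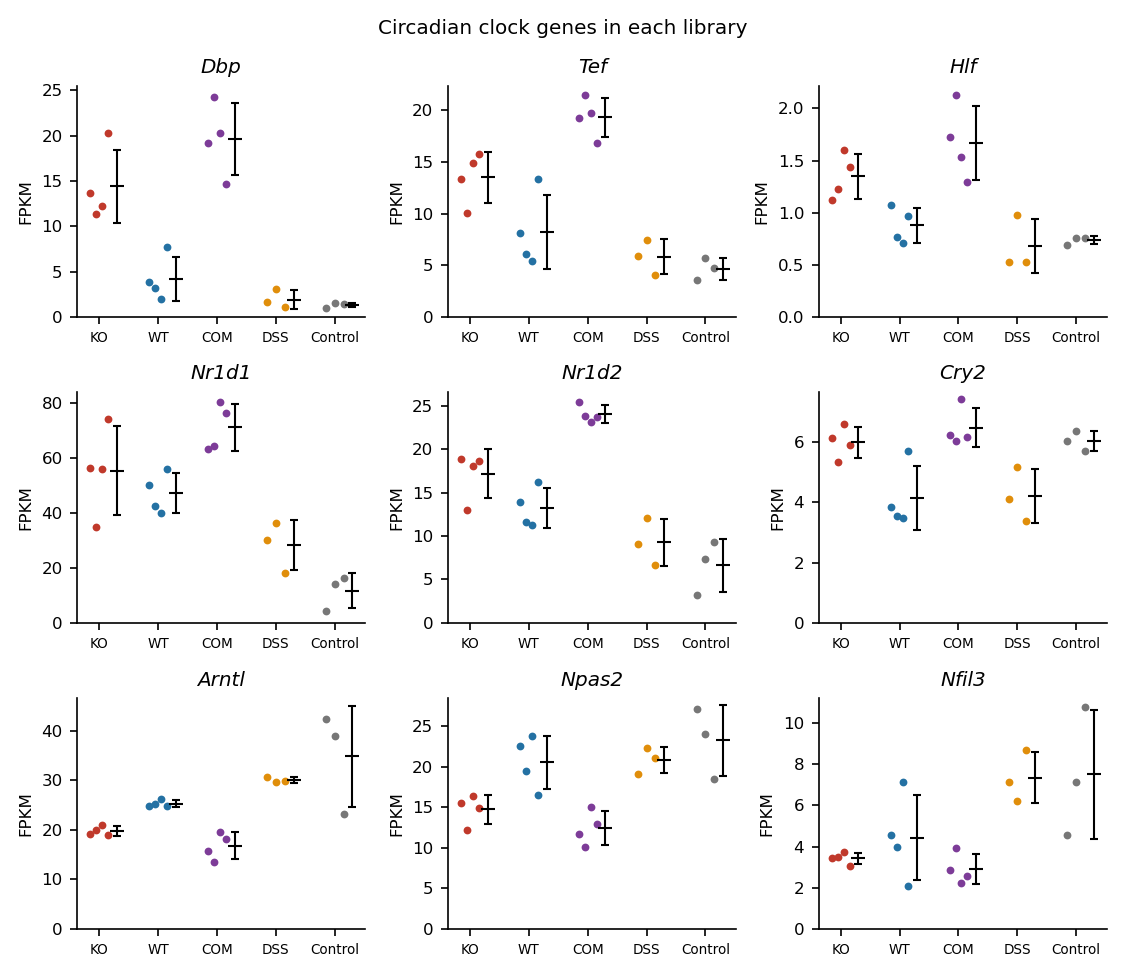
FPKM of 9 clock genes in each of the 18 libraries, with bars for the mean ± SD of each group (n = 4 for ZJ316_KO, ZJ316_WT and ZJ316_COM, n = 3 for DSS and Control). Dbp lies at 11.36 to 20.27 FPKM in ZJ316_KO and at 1.08 to 3.04 FPKM in DSS, and Arntl at 19.01 to 20.96 FPKM in ZJ316_KO and 29.68 to 30.76 FPKM in DSS.

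ZJ316_COM mice had the highest group means of Dbp and Tef. Dbp averaged 14.4 FPKM in ZJ316_KO, 4.17 ± 2.44 FPKM in ZJ316_WT and 19.6 ± 3.98 FPKM in ZJ316_COM, with 1.31 ± 0.26 FPKM in Control. Its level in ZJ316_KO differed from that in ZJ316_WT (1.65 ± 0.28, adjusted p = 0.0266) and not detectably from that in ZJ316_COM (-0.43 ± 0.28, adjusted p = 0.608). The order of group means ran from ZJ316_COM over ZJ316_KO, ZJ316_WT and DSS to Control, and the libraries of ZJ316_KO and ZJ316_COM overlapped, as did those of ZJ316_WT and DSS and those of DSS and Control.

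BMAL1 and CLOCK bind the E-box, written CACGTG. The promoter windows of the clock genes, the 250 bases before each RefSeq start (GRCm38.p6), were searched for it on both strands, and 16 of the 18 genes had a window. The E-box was present for 5 of 16 genes (31.2%), against 6.86% of all 27025 genes and 6.02% of all 32851 windows. It was present for 4 of 13 genes of the cholesterol synthesis list (30.8%), a share close to that of the clock genes. The D-box, searched as TTANGTAA, was present for Per3 alone of the 16 (6.25%, against 2.44% of all genes). The Dbp window held no match to either. Tef, the clock gene with the second largest fold change, had an E-box in the windows of both of its starts, which are printed 5′ to 3′ on the plus strand with the E-box in capitals, at chr15:81802423-81802672 and chr15:81811164-81811413. A match is a description of the letters and shows no binding.
Tef upstream start: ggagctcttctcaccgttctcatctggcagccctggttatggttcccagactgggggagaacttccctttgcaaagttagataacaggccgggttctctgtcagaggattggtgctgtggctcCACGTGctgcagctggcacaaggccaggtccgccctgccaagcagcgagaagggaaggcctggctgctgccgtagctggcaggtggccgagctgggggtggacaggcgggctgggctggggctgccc
Tef downstream start: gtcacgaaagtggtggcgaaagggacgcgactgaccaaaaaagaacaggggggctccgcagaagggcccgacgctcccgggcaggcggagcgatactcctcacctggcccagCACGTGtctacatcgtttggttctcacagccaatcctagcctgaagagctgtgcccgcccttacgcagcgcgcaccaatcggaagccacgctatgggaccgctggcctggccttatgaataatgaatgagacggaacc

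Every gene of the cholesterol synthesis list was higher in ZJ316_KO, though no single gene passed. All 20 genes had a positive fold change, with a median of 0.53 and a range of 0.20 to 0.95. In all 20 the ZJ316_KO libraries lay above the DSS libraries (7.81% of all genes). In limma 0 were called (0.101% of all genes rose) and 16 had an unadjusted p under 0.05 (16.5% of all genes). The smallest adjusted p was 0.0832, and with only the ZJ316_KO and DSS libraries in the fit Hmgcs1 and Sqle passed (adjusted p = 0.0471 each). All 20 fold changes were positive in each of the 22 fits, including those without the acinar-rich, the squamous-rich and the low-Hox libraries, whose medians were 0.71, 0.56 and 0.57. The list's mean log2(FPKM + 1) was 5.33 to 5.67 in ZJ316_KO, 5.18 to 5.54 in ZJ316_WT, 5.14 to 5.49 in ZJ316_COM, 4.85 to 5.02 in DSS and 4.56 to 5.45 in Control.

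The enzymes at the head of the pathway had some of the largest differences. Hmgcs1, which makes HMG-CoA, had 140.03, 165.26, 140.41 and 151.42 FPKM in ZJ316_KO, against 75.39, 66.73 and 89.57 FPKM in DSS. Its fold change was 0.95 ± 0.23 (adjusted p = 0.0917), with a clear gap between groups. Mvk, the mevalonate kinase, had 19.68, 22.66, 15.6 and 18.82 FPKM in ZJ316_KO, against 10.53, 12.43 and 11.55 FPKM in DSS (0.68 ± 0.16, adjusted p = 0.0832). ZJ316_KO 2 was the highest library for both genes. Mvd, Idi1 and Fdps, which carry mevalonate on to farnesyl pyrophosphate, had fold changes of 0.54 ± 0.20, 0.46 ± 0.23 and 0.50 ± 0.21.

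The sterol branch followed the same order of groups. Sqle, the squalene epoxidase gene, had 54.42, 65.25, 54.65 and 55.93 FPKM in ZJ316_KO, against 33.66, 29.09 and 35.73 FPKM in DSS (0.79 ± 0.21, adjusted p = 0.107). Fold changes were 0.60 ± 0.18 for the squalene synthase gene Fdft1, 0.67 ± 0.20 for the lanosterol synthase gene Lss and 0.67 ± 0.18 for the demethylase gene Cyp51. They were 0.62 ± 0.22 for Msmo1, 0.48 ± 0.16 for Nsdhl and 0.53 ± 0.15 for Hsd17b7, which process the sterol ring. Later steps differed less, with 0.20 ± 0.11 for Sc5d and 0.33 ± 0.08 for Dhcr7.

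Regulators were also higher. Srebf2, the gene of SREBP2 itself, had 65.17, 58.98, 59.92 and 58.81 FPKM in ZJ316_KO, against 47.76, 52.72 and 49.45 FPKM in DSS. The groups did not overlap, at 0.28 ± 0.07 (adjusted p = 0.0966). Insig1, which holds SREBP in the endoplasmic reticulum, had 0.48 ± 0.24. Against ZJ316_WT and ZJ316_COM, 0 of the 20 genes in ZJ316_KO passed in limma (smallest adjusted p = 0.0781 and 0.238), and Hmgcs1 had differences of 0.41 (adjusted p = 0.293) and 0.36 (adjusted p = 0.567).

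**Figure D4:**
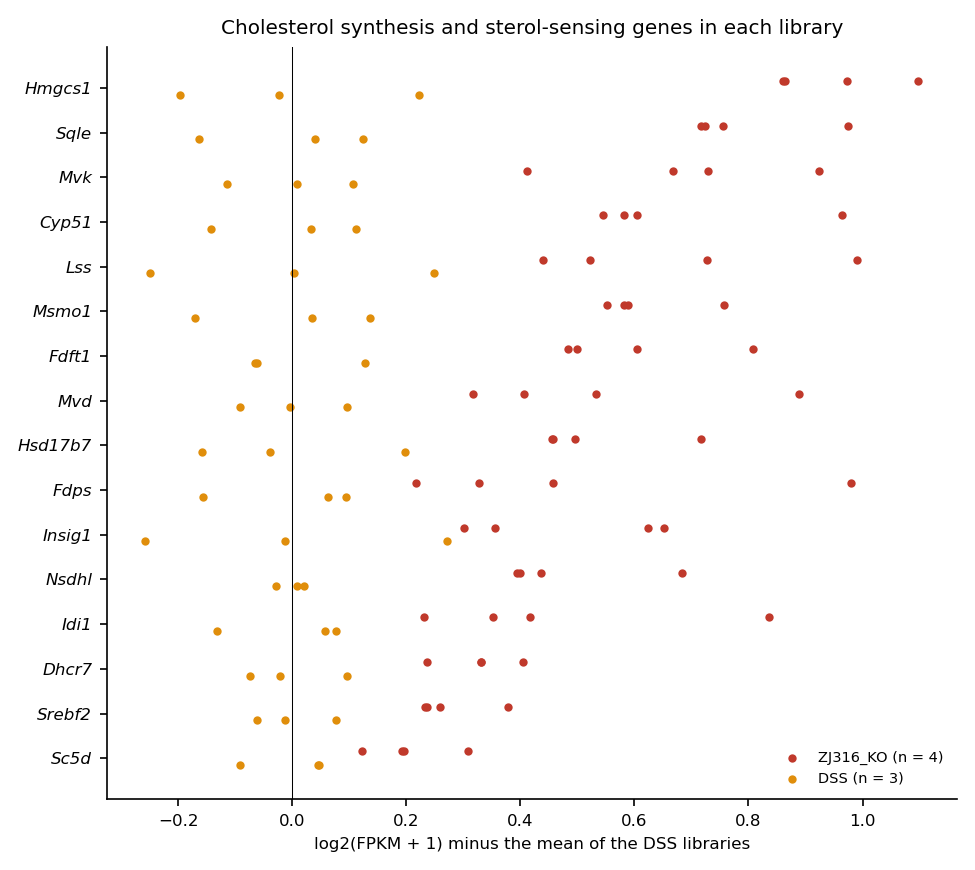
Of the 20 cholesterol synthesis and sterol-sensing genes 16 are drawn, 1 per row, with log2(FPKM + 1) of each library minus the mean of the DSS libraries on the horizontal axis. Red points are the 4 ZJ316_KO libraries and orange points the 3 DSS libraries. In every row the red points lie to the right of the orange ones, with the widest shift for Hmgcs1 (0.95) and the narrowest for Sc5d (0.20).

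SREBP2 binds sterol regulatory elements, searched here as TCACNCCA on both strands of the same 250-base windows, which were at hand for 13 of the 20 genes. The element was present for 3 of 13 genes (23.1%), against 4.2% of all genes and 3.67% of all windows. These were Hmgcs1, the gene with the largest fold change, Msmo1, and Srebf2, and their windows are printed 5′ to 3′ from RefSeq GRCm38.p6 with the element in capitals. It starts 137 bases before the start of Hmgcs1, 177 before that of Msmo1 and 162 before that of Srebf2. The windows are chr13:119690101-119690350 on the plus strand, chr8:64733579-64733828 on the minus strand and chr15:82147019-82147268 on the plus strand, and none of them held an E-box or a D-box.
Hmgcs1: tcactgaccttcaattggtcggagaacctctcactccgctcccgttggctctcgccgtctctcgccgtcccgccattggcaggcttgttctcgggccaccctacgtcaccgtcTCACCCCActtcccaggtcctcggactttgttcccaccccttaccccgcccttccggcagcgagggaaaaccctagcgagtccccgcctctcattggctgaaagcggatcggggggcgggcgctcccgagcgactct
Msmo1: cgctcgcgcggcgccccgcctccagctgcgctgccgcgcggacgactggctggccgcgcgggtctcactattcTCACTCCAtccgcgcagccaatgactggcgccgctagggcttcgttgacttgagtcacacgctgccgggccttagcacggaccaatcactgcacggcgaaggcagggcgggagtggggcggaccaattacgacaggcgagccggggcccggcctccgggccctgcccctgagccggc
Srebf2: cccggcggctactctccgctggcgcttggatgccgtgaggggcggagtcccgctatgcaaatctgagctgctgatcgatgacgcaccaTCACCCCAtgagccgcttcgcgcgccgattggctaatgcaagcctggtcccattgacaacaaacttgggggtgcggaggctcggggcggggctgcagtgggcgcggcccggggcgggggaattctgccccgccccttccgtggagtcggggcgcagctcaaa

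Genes of mature epithelium and of energy use leaned higher in ZJ316_KO, with 0 of them called in limma. Of 16 markers of absorptive colonocytes 14 had a positive fold change (median 0.39), 7 did not overlap between groups (7.81% of all genes) and 4 had an unadjusted p under 0.05 (16.5% of all genes). Vil1, the microvillus protein villin, had 218.38, 294.48, 245.73 and 255.28 FPKM in ZJ316_KO, against 192.2, 203.69 and 187.13 FPKM in DSS (0.37 ± 0.08, adjusted p = 0.0764). Guca2a, the hormone guanylin, had 1556.25, 3342.97, 2049.59 and 1911.38 FPKM in ZJ316_KO, against 1306.42, 657.27 and 1400.56 FPKM in DSS (a fold change of 0.998 ± 0.42, adjusted p = 0.252). ZJ316_KO 2 was the highest library for both, and for the list as a whole. In bulk tissue, fewer cells of a type and less RNA per cell cannot be told apart. Without ZJ316_KO 2 the median was 0.30, and without ZJ316_KO 1 Vil1 passed (0.44, adjusted p = 0.0465).

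Among 19 genes of electrolyte and water transport the median was 0.06, or 0.18 without ZJ316_KO 2 and 0.15 without DSS 3, and 5 did not overlap, all higher in ZJ316_KO (7.81% of all genes). The sodium-proton exchanger gene Slc9a3 had 45.16, 128.67, 78.33 and 75.52 FPKM in ZJ316_KO, against 42.54, 5.18 and 66.27 FPKM in DSS, with overlap and a low value in DSS 2 (1.56 ± 0.82, adjusted p = 0.355). The calcium-activated channel regulator gene Clca4a, which has close paralogs, ranged from 246.12 to 635.43 FPKM in ZJ316_KO and from 174.9 to 318.2 FPKM in DSS (0.68 ± 0.27, adjusted p = 0.225).

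All 20 nuclear genes of oxidative phosphorylation tested had a positive fold change, with a median of 0.16, or 0.10 after quantile normalization, and at least 19 did in each of the 22 fits. In 6 the groups did not overlap (7.81% of all genes), and 9 had an unadjusted p under 0.05. Atp5g1, a subunit of the ATP synthase ring, had 314.77, 408.4, 306.42 and 332.26 FPKM in ZJ316_KO, against 265.63, 253.74 and 264.87 FPKM in DSS (0.37 ± 0.10, adjusted p = 0.121). Of 16 fatty acid oxidation genes 14 were positive (median 0.19, or 0.10 with the covariates), and the short-chain dehydrogenase gene Acads, which acts on butyrate-length acids, had 61.82 to 74.78 FPKM in ZJ316_KO and 43.85 to 57.78 FPKM in DSS (0.42 ± 0.20, adjusted p = 0.319). Of 20 xenobiotic and bile acid genes 18 were positive (median 0.25). Of all genes tested 43.6% had a positive fold change. An unadjusted p under 0.05 in limma was found for 0 of the fatty acid oxidation genes and 1 of the xenobiotic genes. Both counts lay below the 16.5% of all genes. Cyp2c55, a colonic cytochrome P450, had 337.53, 412.34, 426.78 and 392.64 FPKM in ZJ316_KO, against 229.85, 185.8 and 251.73 FPKM in DSS (0.82 ± 0.54, adjusted p = 0.467). Its groups did not overlap, and its mean in Control was 1340 FPKM.

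Most lists of immune cell markers leaned the other way, again with 0 genes called in limma. All 9 MHC class II genes were lower in ZJ316_KO than in DSS (median -0.57), all 11 macrophage markers (-0.60), all 11 B cell markers (-0.75) and all 11 T and NK cell markers (-0.43). Of 9 plasma cell genes 8 were lower (-0.80). The groups did not overlap in 6, 6, 5, 5 and 5 genes of these lists, against 11.7% of all genes. An unadjusted p under 0.05 was found for 3, 8, 1, 3 and 4, against 16.5% of all genes. The B cell count, 1 of 11, lay below that share. The macrophage gene Timd4 and the T cell gene Cd8b1 passed the filter only with the DSS libraries, where they were higher. Timd4 is among the 6 and the 8 macrophage genes counted, so these counts were partly set by the filter. ZJ316_KO 2 was the lowest library in these lists, with a mean log2(FPKM + 1) of 4.69 for MHC class II and 2.74 for macrophages, while DSS ranged from 5.57 to 5.72 and from 3.46 to 3.85. Macrophage means were 3.55 to 3.82 in ZJ316_WT and 3.085 to 3.472 in ZJ316_COM. B cell means were 2.15 to 3.25 in ZJ316_KO, 1.86 to 2.99 in ZJ316_WT and 2.20 to 3.15 in ZJ316_COM. In DSS the B cell means were 3.26 to 3.58, so lower values were not particular to ZJ316_KO. Without ZJ316_KO 2 the medians were -0.44 for MHC class II, -0.50 for macrophages, -0.58 for B cells, -0.33 for T and NK cells and -0.56 for plasma cells. Without the acinar-rich libraries, with only DSS 2 left in the DSS group, the macrophage median was -0.98. Without the low-Hox libraries that of plasma cells was -0.52. With the covariates the B cell median was -0.31, and 0 of the 11 B cell genes had an unadjusted p under 0.05 in limma. Mast cell markers did not lean this way. Of 10, 5 passed the filter, 3 of them higher in ZJ316_KO, and 0 had an unadjusted p under 0.05. The mast cell protease gene Mcpt1 had 6.28, 12.37, 5.29 and 5.66 FPKM in ZJ316_KO, against 4.58, 4.05 and 4.61 FPKM in DSS (0.56 ± 0.35, adjusted p = 0.438). ZJ316_KO 2 was also low in the mean of distal Hox genes, though not in Hoxa10 and Hoxa13, and high in colonocyte genes. The part of the sampled region in these differences was not tested.

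H2-Eb1, a chain of the antigen-presenting class II molecule, had 94.77, 60.91, 93.7 and 80.04 FPKM in ZJ316_KO, against 119.25, 136.12 and 127.95 FPKM in DSS (-0.65 ± 0.28, adjusted p = 0.264). Ciita, the activator that switches on these genes, had 3.13, 1.98, 3.58 and 3.12 FPKM in ZJ316_KO, against 5.26, 5.3 and 5.42 FPKM in DSS (-0.70 ± 0.31, adjusted p = 0.282). No ZJ316_KO library reached the DSS range for either gene. The macrophage receptor gene Csf1r had 13.79, 7.21, 11.59 and 8.72 FPKM in ZJ316_KO, against 16.15, 19.9 and 15.5 FPKM in DSS (-0.71 ± 0.24, adjusted p = 0.172). Cd3e, a chain of the T cell receptor complex, had 2.03, 1.67, 1.82 and 1.64 FPKM in ZJ316_KO, against 3.95, 4.16 and 3.53 FPKM in DSS. The DSS libraries held more than any ZJ316_KO library, at -0.81 ± 0.20 (adjusted p = 0.102, or 0.0471 with only these groups fitted). Irf4, needed for plasma cells, had 1.18 to 2.96 FPKM in ZJ316_KO and 4.13 to 5.29 FPKM in DSS (-0.87 ± 0.28, adjusted p = 0.155), and Cr2, the complement receptor of follicular B cells, had 1.62 to 4.06 FPKM in ZJ316_KO and 4.79 to 6.59 FPKM in DSS (-0.95 ± 0.42, adjusted p = 0.279).

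Of 18 chemokine genes 16 were lower (median -0.42, or -0.27 without the low-Hox libraries ZJ316_KO 2 and DSS 3), and 4 did not overlap (11.7% of all genes). The follicular chemokine gene Cxcl13 had 16.93, 13.69, 24.11 and 24.2 FPKM in ZJ316_KO, against 34.31, 31.19 and 44.72 FPKM in DSS (-0.89 ± 0.41, adjusted p = 0.294). Of 14 NF-kB target genes 13 were lower (median -0.18, or -0.30 without the acinar-rich libraries) and 7 did not overlap (11.7% of all genes), among them Vcam1, a vascular adhesion molecule, with 6.66, 4.24, 7.55 and 6.21 FPKM in ZJ316_KO and 10.67, 11.53 and 10.37 FPKM in DSS (-0.75 ± 0.27, adjusted p = 0.193). Among 17 genes of pattern recognition the median was -0.16, or -0.08 without DSS 3. Leaving out the acinar-rich set gave -0.11. In 6 the groups did not overlap, all lower in ZJ316_KO (11.7% of all genes), and 4 had an unadjusted p under 0.05 (16.5% of all genes). Tlr7, a sensor of single-stranded RNA, had 0.88, 0.49, 0.95 and 0.55 FPKM in ZJ316_KO, against 1.71, 1.63 and 1.69 FPKM in DSS (-0.65 ± 0.14, adjusted p = 0.0618). Tlr4, the receptor for lipopolysaccharide, had 5.89, 6.58, 5.11 and 6.35 FPKM in ZJ316_KO, against 9.1, 8.66 and 9.13 FPKM in DSS (-0.52 ± 0.17, adjusted p = 0.157). Both sensors were lower in every ZJ316_KO library, and Tlr7 passed after quantile normalization (-0.62, adjusted p = 0.0198). Tlr7 entered the test only through the DSS libraries, where it was high. Further lists linked to inflammation held 0 genes at an unadjusted p under 0.05 in limma (16.5% of all genes). Of these, 12 of 21 interferon-induced genes, 7 of 10 MHC class I genes and 8 of 14 epithelial acute phase and antimicrobial genes were lower. All 6 cytokine genes tested and 11 of 12 genes of matrix proteases and inhibitors were lower as well.

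**Figure D5:**
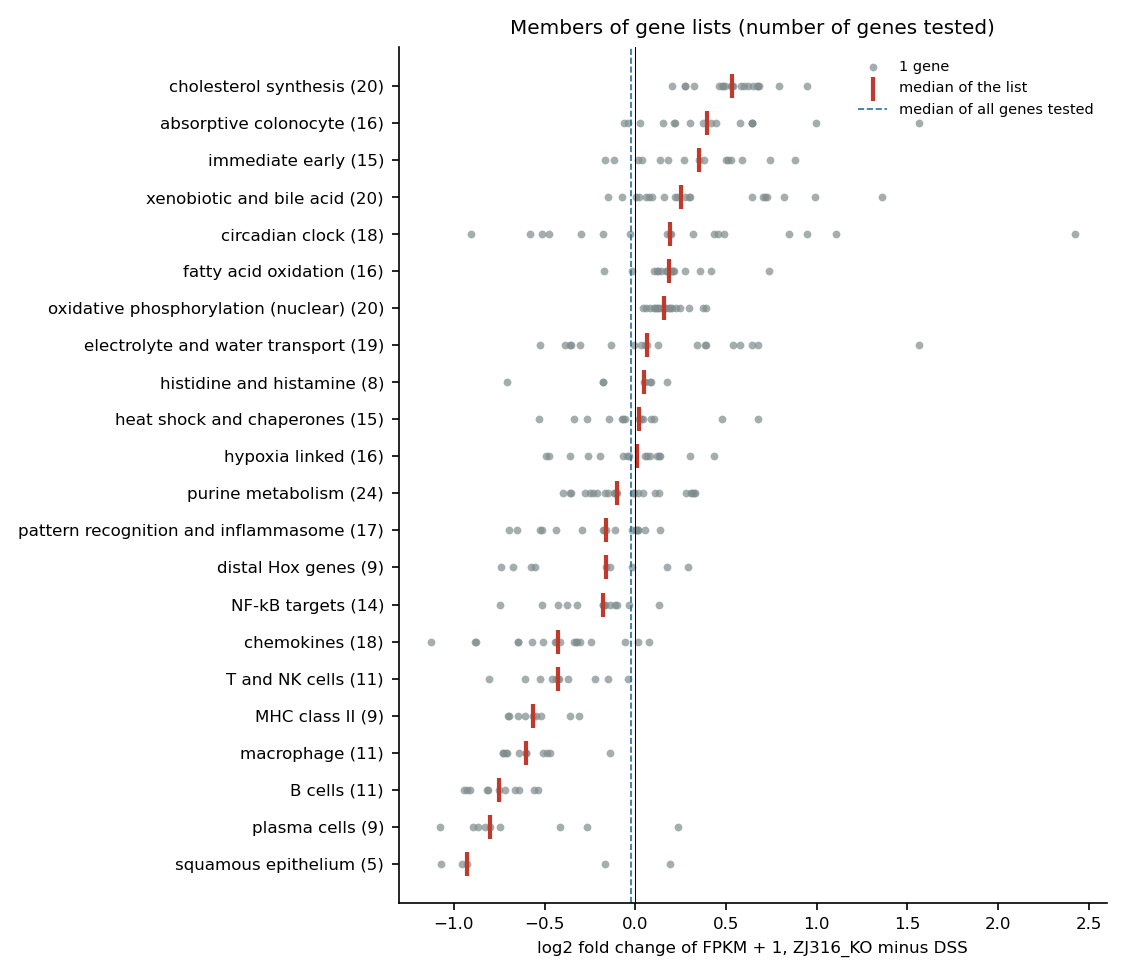
Log2 fold change of FPKM + 1, ZJ316_KO minus DSS, of each tested gene in 22 lists, with the number of genes in brackets. Grey points are genes, red bars list medians and the dashed line the median of all genes tested (-0.03). The cholesterol synthesis points all lie above 0 and those of MHC class II, macrophages and B cells all below 0. The acinar list, with a median of -3.84, is not drawn.

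The title of the series names purine and histidine metabolism of the gut microbiota, so the host genes of these pathways were read as well. Of 24 purine genes tested 0 were called in limma and 2 had an unadjusted p under 0.05, below the 16.5% of all genes. The median was -0.10, or -0.05 without DSS 3, -0.03 without the low-Hox libraries and -0.04 with the length and GC trend removed. Those 2 were Aprt, which salvages adenine, with 84.74, 100.46, 81.34 and 90.36 FPKM in ZJ316_KO and 73.23, 76.82 and 69.34 FPKM in DSS (0.28 ± 0.07, adjusted p = 0.109), and the nucleotidase gene Nt5c2 (0.33 ± 0.10, adjusted p = 0.147). In both the ZJ316_KO libraries lay above the DSS libraries. Gda, which deaminates guanine, had 37.37, 29.28, 30.47 and 40.14 FPKM in ZJ316_KO, against 45.4, 43.87 and 46.42 FPKM in DSS (-0.40 ± 0.20, adjusted p = 0.319). Xdh, which makes uric acid, had 29.14 to 33.07 FPKM in ZJ316_KO and 33.73 to 38.85 FPKM in DSS (-0.23 ± 0.20, adjusted p = 0.580). The enzymes of new purine synthesis differed little, with fold changes of -0.12 ± 0.23 for Ppat, -0.10 ± 0.13 for Gart, -0.11 ± 0.08 for Pfas, -0.25 ± 0.18 for Paics, -0.15 ± 0.09 for Adsl and 0.04 ± 0.10 for Atic, and the ZJ316_KO and DSS libraries of all 6 overlapped.

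The steps from IMP onward were as close. Fold changes were 0.31 ± 0.17 for Impdh1, -0.21 ± 0.18 for Impdh2 and -0.10 ± 0.09 for Gmps, which make GMP, and 0.01 ± 0.08 for Adss, which makes the precursor of AMP. Among salvage and breakdown genes Hprt had 0.11 ± 0.07, Ada 0.13 ± 0.18, Pnp -0.01 ± 0.08 and Uox -0.28 ± 0.60. Adk, the adenosine kinase, had 65.87, 73.37, 67.72 and 67.13 FPKM in ZJ316_KO, against 57.81, 46.64 and 59.86 FPKM in DSS (0.33 ± 0.20, adjusted p = 0.433), so that no DSS library reached the ZJ316_KO range. The ectonucleotidase genes, whose products degrade extracellular ATP to adenosine, had -0.35 ± 0.20 for Entpd1, -0.01 ± 0.11 for Entpd3, 0.31 ± 0.15 for Entpd8 and -0.36 ± 0.53 for Nt5e. The adenosine receptor gene Adora2a had -0.17 ± 0.11. None of these passed, and all but Adk overlapped between groups.

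Of 14 genes of histidine and histamine metabolism 8 passed the filter, 0 of them were called in limma and 1 had an unadjusted p under 0.05. That gene was Hars2, the mitochondrial histidyl-tRNA synthetase, with 7.82 to 9.52 FPKM in ZJ316_KO and 9.67 to 10.28 FPKM in DSS (-0.18 ± 0.07, adjusted p = 0.221). Aoc1, the diamine oxidase that breaks down histamine, had 155.31, 45.77, 124.85 and 119.92 FPKM in ZJ316_KO, against 147.55, 218.79 and 144.05 FPKM in DSS. ZJ316_KO 2 was the lowest library, and the groups overlapped (-0.71 ± 0.36, adjusted p = 0.333). Hnmt, the histamine methyltransferase, had 0.18 ± 0.15, and the receptor gene Hrh1 had -0.18 ± 0.12. The fold changes of Hars, Cndp2, Maob and Carns1 lay between 0.04 and 0.09, each smaller than its SE or close to it. The groups overlapped in 7 of the 8 genes.

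Temperature-linked and stress genes were mixed. Of 15 heat shock and cold-inducible genes 1 was called (0.163% of all genes), Rbm3, which rose. In 2 the ZJ316_KO libraries lay above the DSS libraries (7.81% of all genes) and in 1 below (11.7%). An unadjusted p under 0.05 was found for 3, near the 16.5% of all genes. Cirbp, the relative of Rbm3, had 25.46, 20.44, 22.31 and 22.15 FPKM in ZJ316_KO, against 15.23, 18.52 and 14.16 FPKM in DSS (0.48 ± 0.15, adjusted p = 0.157). Hspa8, the constitutive HSC70 chaperone, had 1120.72, 1157.5, 1195.81 and 1210.02 FPKM in ZJ316_KO, against 1642.82, 1553.86 and 1890.27 FPKM in DSS. The ZJ316_KO libraries were tightly grouped and well below the DSS libraries, at -0.53 ± 0.12 (adjusted p = 0.0747), and the gene passed with a filter of 5 FPKM and after quantile normalization. Of 16 hypoxia-linked genes 1 was called (0.163% of all genes), P4ha1, which fell, and 3 had an unadjusted p under 0.05 (16.5% of all genes). The carbonic anhydrase gene Car9 had 37.8 to 58.44 FPKM in ZJ316_KO and 30.23 to 33.56 FPKM in DSS (0.43 ± 0.11, adjusted p = 0.0980).

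Of 15 immediate early genes 13 were higher in ZJ316_KO (median 0.35). In 4 the groups did not overlap, all higher in ZJ316_KO (7.81% of all genes), and 0 were called in limma, with 4 at an unadjusted p under 0.05 (16.5% of all genes). Jund, a subunit of the AP-1 factor, had 129.21, 110.62, 114.71 and 117.53 FPKM in ZJ316_KO, against 75.46, 94.93 and 80.32 FPKM in DSS (0.50 ± 0.10, adjusted p = 0.0529). Atf3, a stress-induced factor, had 43.35, 27.04, 30.23 and 33.45 FPKM in ZJ316_KO, against 17.94, 22.59 and 17.74 FPKM in DSS (0.74 ± 0.16, adjusted p = 0.0618). The groups were apart for both genes, and both passed with the filter of 5 FPKM (adjusted p = 0.0443 for Jund and 0.0492 for Atf3). Without the acinar-rich libraries (ZJ316_KO 3, DSS 1 and DSS 3) the list's median was -0.01, and without DSS 3 alone 0.23.

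For the named genes, ZJ316_KO was also set against the other strains in the same fit, which is also a test of whether strains differ in their distance from DSS, since the DSS mean cancels. All these comparisons use the same 4 ZJ316_KO libraries, so the counts are a description. Of 24 named genes 12 differed from ZJ316_WT (0.813% of all genes did, 0.325% higher and 0.488% lower in ZJ316_KO) and 3 from ZJ316_COM (0.031% of all genes, 0.00774% higher and 0.0232% lower). Of the 12 genes 5 were higher and 7 lower in ZJ316_KO than in ZJ316_WT, and the 3 were lower in ZJ316_KO than in ZJ316_COM. The 12 became 0 without ZJ316_WT 2 or ZJ316_WT 3, 1 without ZJ316_KO 3, 2 without ZJ316_KO 2, ZJ316_KO 4 or ZJ316_WT 1, and 4, 7 and 8 without DSS 1, DSS 3 and DSS 2, which enter through the shared estimate of spread. The 3 became 0 without ZJ316_KO 2, ZJ316_KO 4 or ZJ316_COM 2, 2 without ZJ316_KO 3 and 1 without any other single library of the groups left out in turn. Banp, whose means are given above, differed from both, by -0.67 ± 0.11 from ZJ316_WT (adjusted p = 0.0266) and by -0.87 ± 0.11 from ZJ316_COM (adjusted p = 0.0111). H1f0 averaged 160.5 ± 21.3 FPKM in ZJ316_KO and 96.7 ± 6.16 FPKM in ZJ316_WT, at 0.72 ± 0.10 (adjusted p = 0.0170). It averaged 124.3 ± 13.2 FPKM in ZJ316_COM, a difference of 0.36 ± 0.10 that did not pass (adjusted p = 0.209). Cystm1 averaged 46.9 ± 2.87 FPKM in ZJ316_KO and 27.8 ± 3.26 FPKM in ZJ316_WT (0.74 ± 0.14, adjusted p = 0.0335), and was 44.2 ± 6.91 FPKM in ZJ316_COM (0.09 ± 0.14, adjusted p = 0.853).

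The named genes differed in where the other groups lay. Rbm3 had 119.4 ± 3.06 FPKM in ZJ316_KO, 99.1 ± 10.0 FPKM in ZJ316_WT and 121.1 ± 12.2 FPKM in ZJ316_COM, with 75.0 ± 11.8 FPKM in DSS, and neither strain comparison passed (adjusted p = 0.174 and 0.975). Ccdc116 likewise had 8.91 ± 1.05 FPKM in ZJ316_KO, 7.00 ± 0.80 FPKM in ZJ316_WT, 7.82 ± 0.64 FPKM in ZJ316_COM and 4.86 ± 0.31 FPKM in DSS (adjusted p = 0.0972 and 0.549 against the strains). P4ha1 had 12.5 ± 0.86 FPKM in ZJ316_KO, 18.6 ± 1.44 FPKM in ZJ316_WT and 14.5 ± 1.20 FPKM in ZJ316_COM, with a difference from ZJ316_WT of -0.53 ± 0.08 (adjusted p = 0.0204). Zbtb16 had 1.07 ± 0.46 FPKM in ZJ316_KO, 2.90 ± 0.57 FPKM in ZJ316_WT and 1.17 ± 0.24 FPKM in ZJ316_COM, and differed from ZJ316_WT by -0.93 ± 0.16 (adjusted p = 0.0266). Ints8 differed from ZJ316_COM by -0.40 ± 0.06 (adjusted p = 0.0469), with 9.84 ± 0.92 FPKM in ZJ316_KO and 13.3 ± 0.78 FPKM in ZJ316_COM.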

How the data were processed

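Sequencing of colon RNA in 18 libraries used the DNBSEQ platform, per the labels' protocols. FPKM values of 18349 genes were deposited by the authors in 1 table. The mouse genome build mm10 is named in the submitters' processing notes, while no source used here gives the aligner, the annotation, the filters or the use of strand. Overlapping and near-identical genes can therefore share reads. FPKM values hold no read counts, so no counting intervals were computed. NCBI IDs were paired with symbols through RefSeq (GRCm38.p6): 18230 matched and 119 did not.

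Values were taken as log2(FPKM + 1). The genes that reached 1 FPKM in 3 or more of the 7 libraries were fitted with limma 3.58.1 (R 4.3.3) over all 18 libraries in 5 groups, with a mean-variance trend. P-values were two-sided and adjusted by Benjamini and Hochberg over 12920 genes, at a threshold of 0.05. Groups came from the labels. The fit was checked on simulated data. No pair of libraries held more than 0.538% identical values among genes of 1 FPKM or more.

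The gene lists and the members described were chosen with earlier results of these data known. Named genes were called, did not overlap between groups and averaged 5 FPKM or more in the higher group, up to 12 in each direction. Free places went to the smallest p. Each list gave up to 4 members, and the purine and histidine lists all members that passed the filter. For the clock and cholesterol lists further members were described, chosen after their values were seen. Alternatives changed the pseudocount (0.1), the filter, the scaling, the groups in the fit, covariates and the libraries included. The same replicate numbers in ZJ316_KO and DSS did not pair the libraries. Single values of 6 genes of the lists are not reported here, although the counts and medians of their lists include them.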

Additional observations from a re-analysis of the deposited data

Results flagged for a closer look

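A single library stood apart from the others of its group in 2 gene lists. In all, 45 sets of values were examined in the 4 ZJ316_KO libraries, where chance gives about 1 in 20. These sets were the named genes and the cell type lists, and pathway lists were not examined. The mean log2(FPKM + 1) of pancreatic acinar genes was 9.088 in ZJ316_KO 3, against 0.917 to 1.04 in the other ZJ316_KO libraries. The mean of squamous epithelium genes was 1.774 in the same library, against 0.853 to 0.996 in the others.

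Several named genes differed between strains by a test of the difference itself in limma, each with an adjusted p under 0.05. Against ZJ316_WT, Dbp was higher in ZJ316_KO by 1.649, Cystm1 by 0.7381, H1f0 by 0.7175, Ube2m by 0.3286 and Sra1 by 0.3051 on the log2(FPKM + 1) scale. On the lower side the differences from ZJ316_WT were -0.6673 for Banp, -0.5325 for P4ha1, -0.3309 for Phtf1, -0.2982 for Poglut3, -0.2845 for Fxr1, -0.2654 for Wnk1 and -0.265 for Ulk2. Against ZJ316_COM they were -0.8696 for Banp, -0.397 for Ints8 and -0.3284 for Fxr1. These comparisons share the ZJ316_KO libraries with the comparison to DSS by which the genes were chosen.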

How the results depend on the processing

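The 21 genes called between ZJ316_KO and DSS kept their direction in all alternative fits, but their number did not hold. It was 53 with a filter of 5 FPKM, 10 when only these groups were fitted, 1 with a fold threshold of 1 on the log2 scale and 0 with acinar, squamous and Hox means as covariates. It was 0 without the acinar-rich libraries, 38 without the squamous-rich libraries (4 of them among the 21), 0 without the low-Hox libraries and 0 to 19 when 1 library was left out. The counts of 0 came with 1664, 1366 and 1767 genes at an unadjusted p under 0.05 for the covariates, the acinar-rich and the low-Hox libraries. With the replicate block 5 genes were called, all among the 21, but same-numbered libraries of ZJ316_KO and DSS correlated in their deviations at -0.516, 0.0238 and 0.202, so the numbers are not a pairing.

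Of the named genes, 12 differed from ZJ316_WT. That number was 1 with the replicate block, 5 with covariates, 1 with the fold threshold, 7 without the low-Hox libraries, and 0 without the acinar-rich or the squamous-rich libraries. It was 0 to 11 when 1 library was left out, with 0 without ZJ316_WT 2 or ZJ316_WT 3. The 3 that differed from ZJ316_COM became 1 after quantile normalization, with covariates, or with the length and GC trend removed. They became 0 with only those groups, with the block, with the fold threshold, and without each of the 3 sets of libraries named above, and 0 to 2 when 1 library was left out. The cause of these shifts was not tested. FPKM hold no read counts, so the depth limit on low genes such as Cldn10 and Zbtb16 is unknown.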

Other observations

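Connective tissue and muscle genes leaned in opposite directions, and 0 of them passed in limma. Of 14 fibroblast and collagen genes 13 were lower in ZJ316_KO (median -0.25, or -0.13 without DSS 2, -0.16 without ZJ316_KO 2 and -0.53 without the acinar-rich libraries) and 1 had an unadjusted p under 0.05. That gene was Sparc, a matrix glycoprotein, with 70.1, 51.36, 53.85 and 43.67 FPKM in ZJ316_KO, against 63.75, 75.25 and 64.96 FPKM in DSS (-0.32 ± 0.14, adjusted p = 0.249). Its groups overlapped through ZJ316_KO 1. Of 12 smooth muscle genes 10 were higher (median 0.21, or -0.03 without the acinar-rich libraries and 0.07 without DSS 3). Cnn1, the contractile regulator calponin, had 352.99, 357.93, 364.57 and 296.9 FPKM in ZJ316_KO, against 285.82, 273.36 and 264.83 FPKM in DSS (0.32 ± 0.13, adjusted p = 0.241). The groups did not overlap.

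Secretory cell and stress genes were mixed, again with 0 called in limma. Tff3, the trefoil peptide of goblet cells, had 1885.34, 1308.94, 1499.13 and 1706.74 FPKM in ZJ316_KO, against 2052.66, 2288.24 and 2151.26 FPKM in DSS (-0.45 ± 0.20, adjusted p = 0.277). The median of 12 goblet cell genes was 0.13, but -0.02 without DSS 2, -0.07 with the covariates and 0.41 without the acinar-rich libraries, so no direction is given for the list. Of 15 genes of the unfolded protein response 12 were lower (median -0.19, or -0.08 without DSS 3, -0.11 without ZJ316_KO 4 and -0.000349 without the acinar-rich libraries) and 4 had an unadjusted p under 0.05. Among these Atf4, a factor of the integrated stress response, had 100.81, 116.59, 101.02 and 96.34 FPKM in ZJ316_KO, against 86.63, 77.75 and 86.47 FPKM in DSS (0.31 ± 0.10, adjusted p = 0.156). Xbp1, which drives secretory capacity, had 122.98 to 159.0 FPKM in ZJ316_KO and 159.93 to 211.69 FPKM in DSS (-0.41 ± 0.15, adjusted p = 0.193). Of 14 neutrophil genes 6 passed the filter, and 0 of these had an unadjusted p under 0.05 in limma.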
